A study of Mus musculus with 6 samples.

Results

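The genes described here are 10 genes of the zinc-dependent histone deacetylases (HDACs), not the whole family, taken by symbol from count tables of mouse sciatic nerve. The members are Hdac1, Hdac2, Hdac3 and Hdac8 of class I, Hdac4, Hdac5, Hdac7 and Hdac9 of class IIa, Hdac6 of class IIb and Hdac11 of class IV, out of 24015 genes listed. HDACs remove acetyl groups from lysines of histones and of other proteins. Of class I, HDAC1, HDAC2 and HDAC3 work in the nucleus inside the corepressor complexes NuRD, SIN3, CoREST, MiDAC and NCoR/SMRT. Class IIa enzymes have little catalytic activity of their own, bind MEF2 transcription factors and move to the cytoplasm when kinases phosphorylate them and 14-3-3 proteins bind. In Schwann cells, HDAC1 and HDAC2 act with Sox10 and Egr2 in the myelination programme, HDAC3 restrains myelin growth, and HDAC4 and HDAC5 repress Jun when cAMP signals start differentiation.

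The study compared nerves with and without the E3 ligase Rnf40 in Schwann cells, to ask what monoubiquitination of histone H2B does in peripheral myelination. Control mice carried floxed Rnf40 alleles (Rnf40 fl/fl) without Cre, and conditional knockout (cKO) mice carried the same alleles together with the Dhh::Cre transgene, which acts in the Schwann cell lineage. RNA-Seq libraries were made at postnatal day 14, 3 per genotype, each from a pool of 3 sciatic nerves. The labels give a mixed 129SvJ/C57Bl/6J background and a NEB Next Ultra kit for all 6 libraries, whereas the methods name C3H in place of 129SvJ and a directional kit. Whole nerve also holds fibroblasts, perineurial, endothelial and immune cells, in which Rnf40 is not deleted. The reads counted on genes were 1317167, 1992622 and 2468765 for control replicates 1 to 3, and 2184268, 1459387 and 2186710 for cKO replicates 1 to 3. Values below are normalized counts, that is, counts scaled by edgeR's TMM factors to a common library size.

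Rnf40 itself was lower in every cKO library. It stood at 127, 123 and 138 normalized counts in control replicates 1, 2 and 3 and at 87.7, 87.9 and 91.5 in the cKO replicates, so that the groups did not overlap. The log2 fold change, cKO over control, was -0.54 (SE 0.14, edgeR quasi-likelihood test with Benjamini-Hochberg adjustment, adjusted p = 0.00242). The counts cover the whole gene, so that transcripts lacking only the deleted exons were counted as well. In total-count scaling, which ignores library composition, the log2 fold change was -0.27 with an edgeR adjusted p of 0.12.

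The tissue label fits the markers of Schwann cells, and the genotypes differed in them. All 6 markers of myelinating Schwann cells were lower in cKO nerves, with sums of 254856 to 291919 normalized counts in control and of 66413 to 70482.5 in cKO libraries. Among 6 lineage markers, 5 were lower and 1 higher, and 3 of 7 cell cycle markers tested, with Mki67 most abundant, were higher. Markers of fibroblasts (7 of 8 lower, Col3a1 most abundant) and perineurial cells (4 of 4, Itgb4) also stood lower. The paper lists Itgb4 among its candidates for direct Rnf40 targets in Schwann cells, and which cells its reads came from was not tested. Markers of endothelial cells (6 of 10 lower, Cdh5 most abundant) and macrophages (7 of 11, Csf1r) stood lower as well. Of 7 adipocyte markers 4 were lower, without Fabp4, the most abundant (edgeR adjusted p = 0.33). A change in the number of cells of a type and a change in RNA per cell cannot be told apart in bulk nerve, for the HDACs as for the markers. In its stainings at postnatal day 14, the paper counted a comparable share of Schwann cells in both genotypes. It counted more cells in total and more macrophages in cKO nerves. Among defining markers of cells outside the nerve's own types, Rbfox3 and Elavl4 of neuronal cell bodies and Cd3e, Cd79a and Ms4a1 of lymphocytes had at most 3 reads in each library, as had Aif1 of macrophages. Other genes of these lists had more, with 17 to 32 reads for Nefh, the most abundant neuronal marker, and up to 4 for Cd3g. By edgeR 1 of 4 neuronal markers tested was higher, Snap25, with 3, 6 and 8 reads in control and 23, 13 and 23 in cKO replicates 1, 2 and 3 (edgeR adjusted p = 0.00375).

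Skeletal muscle RNA was low in 2 libraries, cKO replicates 1 and 2. The 15 muscle markers, led by Myh4, had summed normalized counts of 8607, 6453 and 4864 in the control libraries, replicates 1 to 3. The cKO libraries, in the same order, had 200.4, 506 and 6434. By edgeR 0 of the 15 were called. The muscle sum of cKO replicate 3 therefore lay within the range of the control libraries. Single muscle markers differed from this. In cKO replicate 3, Myh1 (304) and Myh2 (274) lay above each control library, and Myh4 (1142) and Pvalb (299) below each. Without cKO replicate 3, which is left out in some values below, each remaining cKO library has a lower muscle sum than each control library. Reads of the Y-linked genes Ddx3y, Kdm5d, Eif2s3y and Uty were 0 in control replicate 1 and in cKO replicate 2 and present in the others, so that 1 library of each genotype lacked them. Hdac6 and Hdac8 lie on the X chromosome.

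**Figure D1:**
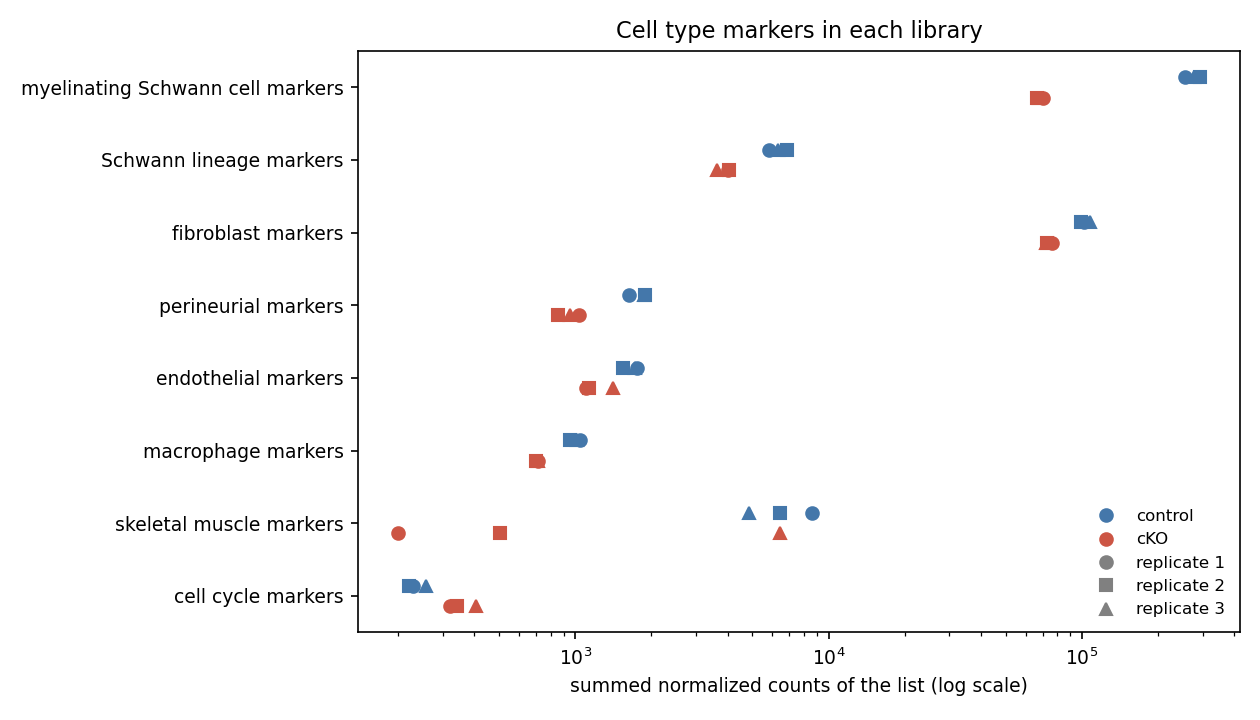
Summed normalized counts (log scale) of 8 lists of cell type markers in each library, with control in blue, cKO in red and the replicate given by the symbol. Sums of every list except skeletal muscle separate the genotypes, lower in cKO save for the cell cycle markers. The muscle sum of cKO replicate 3 (6434) lies among the control libraries.

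Of the 10 HDAC genes, all tested, 3 were higher in cKO nerves at an adjusted p of at most 0.05: Hdac4, Hdac9 and Hdac2. None was lower in edgeR. Over all 11371 genes tested, 15.4% were higher and 16.2% lower by the same rule. At an unadjusted p under 0.05, 3 HDAC genes were higher and 0 lower, against 20.3% and 20.7% of all genes. DESeq2 without a fold-change prior also called 3 higher and 0 lower, against 10.3% and 11.3% of all genes. With a minimum absolute log2 fold change of 0.8 and a base mean (mean normalized count) of 20 in addition, Hdac4 and Hdac9 were higher and 0 members lower, against 3.65% and 4.99% of all genes. Without cKO replicate 1 or without cKO replicate 2, this stricter rule called 1 member, Hdac4. Hdac9 then kept log2 fold changes of 1.19 and 1.14 (edgeR adjusted p = 0.0203 and 0.0165) and missed only the base mean minimum. The 7 members not called stayed so without cKO replicate 3, with edgeR log2 fold changes of 0.63 for Hdac1, 0.28 for Hdac3, 0.08 for Hdac8, -0.17 for Hdac5, -0.16 for Hdac7, -0.18 for Hdac6 and -0.57 for Hdac11.

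Every cKO library lay above every control library for 4 members, Hdac1, Hdac2, Hdac4 and Hdac9, and below for 0. Such separation was found upward in 22.0% and downward in 21.6% of all genes tested. The median log2 fold change of the 10 members was 0.09, with 5 of 10 above 0, beside 0.00 for all genes tested, of which 49.8% were above 0. By class, 1 of 4 class I genes and 2 of 4 class IIa genes were called higher, and neither Hdac6 nor Hdac11 was called. Under total-count scaling, which moved the median of all genes to 0.27, the signs of Hdac5, Hdac6, Hdac7 and Hdac8 turned positive and Hdac1 and Hdac3 were called higher as well.

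**Figure D2:**
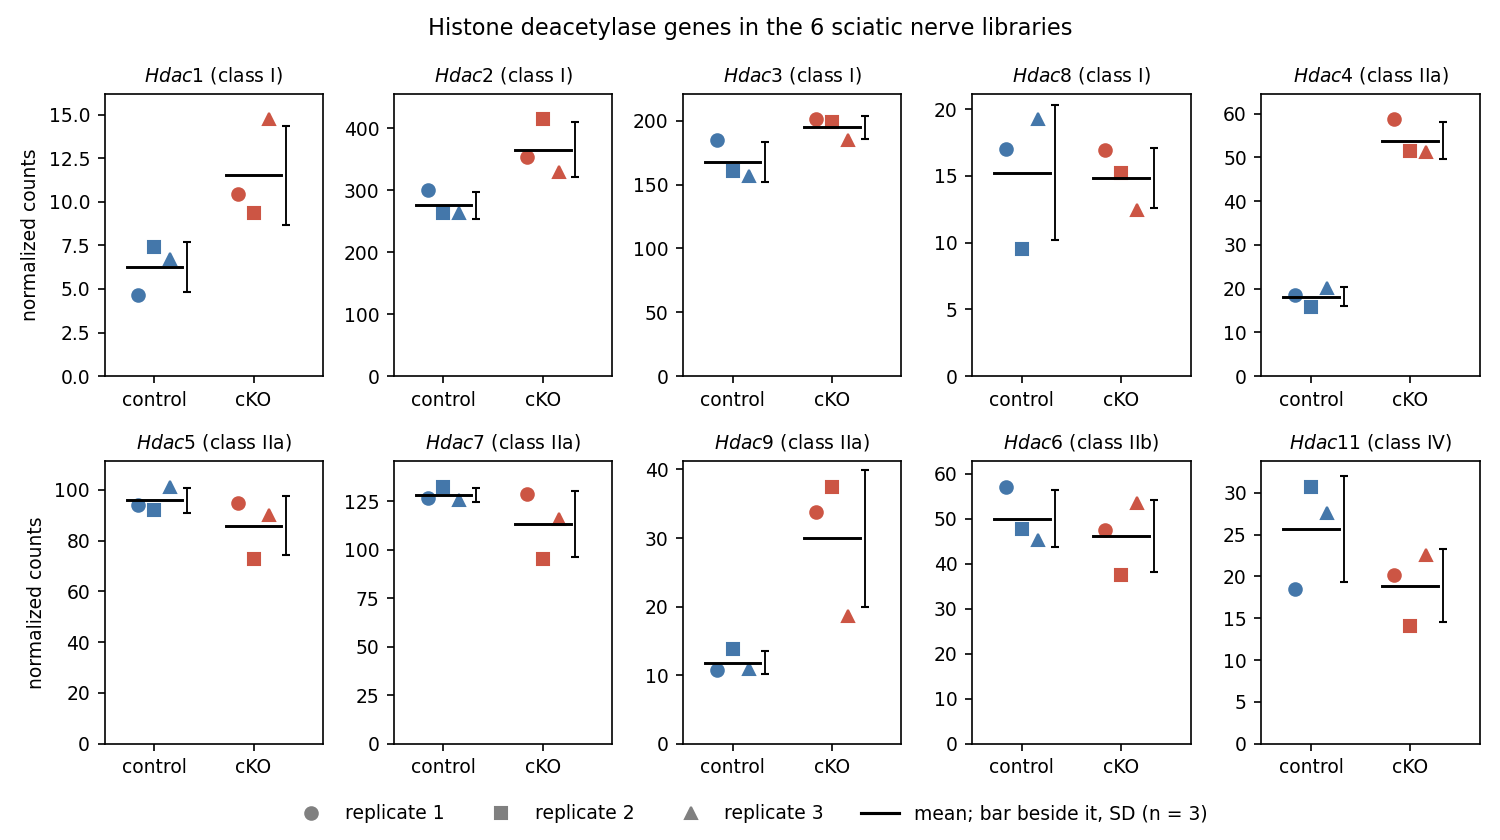
Normalized counts of the 10 HDAC genes in each library, by genotype, with the replicate given by the symbol, the mean as a line and the SD (n = 3) as the bar beside it. Hdac4 lies between 15.9 and 20.1 in control and between 51.2 and 58.7 in cKO libraries, whereas Hdac5 and Hdac7 overlap between genotypes.

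Class I held the members with the highest level per length, Hdac2 and Hdac3. Hdac2, a catalytic subunit of NuRD, SIN3, CoREST and MiDAC, stood at 301, 263 and 264 normalized counts in control replicates 1, 2 and 3 and at 353, 415 and 329 in cKO replicates 1, 2 and 3. Each cKO value was above each control value, with the highest in cKO replicate 2. Hdac2 rose with a log2 fold change of 0.41 (SE 0.10, edgeR adjusted p = 0.00245), a 1.33-fold difference with a 95% confidence interval of 1.15 to 1.54. Without cKO replicate 3 its log2 fold change was 0.49 (edgeR adjusted p = 0.000166).

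Hdac2 lies on chromosome 10, from 36694350 to 36721695 on the plus strand of mm9. RefSeq's promoter table (GRCm38.p6), which spans 250 bases before and 50 after each start, held 8 of the 10 members, Hdac1 and Hdac3 not being matched. For the called members the upstream 250 bases are shown, since these genes moved the same way and their starts can be compared. The Hdac2 window, chr10:36974294-36974543 on the plus strand, begins a promoter with 69.7% G and C and 36 CpG dinucleotides, where the medians over 32851 promoters are 52.7% and 7.
Hdac2 upstream: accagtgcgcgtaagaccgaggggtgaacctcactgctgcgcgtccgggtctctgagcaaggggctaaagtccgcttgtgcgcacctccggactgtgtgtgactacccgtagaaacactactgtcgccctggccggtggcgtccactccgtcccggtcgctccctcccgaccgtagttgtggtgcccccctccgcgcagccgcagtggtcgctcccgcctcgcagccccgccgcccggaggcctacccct
The core GTGGGCG bound by EGR factors such as Egr2, searched on both strands, is not in this promoter and is in 7.97% of all promoters.

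Hdac3, the catalytic subunit of NCoR and SMRT complexes, lies on chromosome 18 from 38095498 to 38114642 on the minus strand. It stood at 185, 161 and 156 normalized counts in control and at 201, 199 and 185 in cKO replicates 1, 2 and 3. Control replicate 1 reached the lowest cKO library, so that the groups overlapped. The log2 fold change was 0.23 (SE 0.11, fold 1.17, 95% confidence interval of the fold 0.998 to 1.38, edgeR adjusted p = 0.126).

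Hdac8, which deacetylates the cohesin subunit Smc3, was measured from few reads. It lies on the X chromosome from 99479978 to 99700698 on the minus strand. Values were 17.0, 9.53 and 19.2 normalized counts in control and 16.9, 15.2 and 12.4 in cKO replicates 1, 2 and 3. All cKO values lay within the control range. The log2 fold change was -0.05 (SE 0.36, edgeR adjusted p = 0.93), with a 95% confidence interval from -0.77 to 0.67 that spans changes in either direction at this depth.

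Hdac1, the close paralog of Hdac2 in the same complexes, was measured from few reads. It had 3, 7 and 8 reads in control and 13, 8 and 19 reads in cKO replicates 1, 2 and 3, or 4.63, 7.41 and 6.69 against 10.5, 9.37 and 14.7 normalized counts. The cKO libraries all lay above the control libraries, and the log2 fold change was 0.86 (SE 0.45, edgeR adjusted p = 0.135).

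These Hdac1 values are uncertain, because only uniquely mapped reads were counted and much of the transcript has near-identical copies in the genome. Of all 50-base windows of its longest coding transcript, 91.9% occur elsewhere in mm9 with at most 2 mismatches, and 80.1% of 100-base windows do. The closest copy, on chromosome 17 from 78890879 to 78892881, is 98.75% identical over 2004 aligned bases. Hdac1 lies on chromosome 4 from 129193348 to 129219957 on the minus strand. In the other members the share of 50-base windows with such a copy was 0.485% for Hdac9, 0.0208% for Hdac5 and 0 for the rest. How many Hdac1 reads were dropped was not tested, and its level cannot be set against that of Hdac2.

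A ratio within a library does not depend on the scaling between libraries. The log2 ratio of Hdac2 to Hdac1 reads was 6.02, 5.15 and 5.30 in control and 5.08, 5.47 and 4.48 in cKO replicates 1, 2 and 3. Values of the genotypes overlapped, and the difference in means, cKO minus control, was -0.48. A two-sided exact permutation test gave p = 0.4, where 0.1 is the smallest value that 3 against 3 libraries allow.

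Class IIa held the largest changes among the 10 members. Hdac4, a corepressor recruited by MEF2 and known in muscle and Schwann cells, stood at 18.5, 15.9 and 20.1 normalized counts in control replicates 1, 2 and 3. In cKO replicates 1, 2 and 3 it stood at 58.7, 51.5 and 51.2. The lowest cKO library was above the highest control library, and the cKO libraries were close to each other. Means were 18.2 ± 2.12 and 53.8 ± 4.26 (SD, n = 3). The control values rest on 12, 15 and 24 reads.

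Hdac4 rose with a log2 fold change of 1.56 (SE 0.25, edgeR adjusted p = 2.18e-06). This is a 2.94-fold difference with a 95% confidence interval of 2.08 to 4.16. Without cKO replicate 3 the log2 fold change was 1.61 (edgeR adjusted p = 1.39e-06), and with any single library removed it lay between 1.46 and 1.66. Hdac4 lies on chromosome 1 from 93829334 to 94044970 on the minus strand, and 132 exonic bases overlap the antisense gene Gm17418, from which its reads cannot be told apart without a stated strand setting.

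Hdac9, a class IIa member that also gives a short form without the catalytic domain, followed the same direction at a lower level. It stood at 10.8, 13.8 and 10.9 normalized counts in control and at 33.8, 37.5 and 18.6 in cKO replicates 1, 2 and 3. All cKO libraries were above all control libraries, but cKO replicate 3 was nearer to the controls than the others. Means were 11.8 ± 1.69 and 30.0 ± 10.003 (SD, n = 3). The control values rest on 7, 13 and 13 reads.

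Hdac9 rose with a log2 fold change of 1.30 (SE 0.34, edgeR adjusted p = 0.00217), a 2.47-fold difference with a 95% confidence interval of 1.53 to 3.98. Without cKO replicate 3 the log2 fold change was 1.58 (edgeR adjusted p = 0.00012). The library with the lower Hdac9 value among cKO libraries was the one with a muscle sum in the control range. The part of muscle RNA in the Hdac9 values was not tested. Hdac9 lies on chromosome 12 from 34732451 to 35213754 on the minus strand.

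The starts of Hdac4 and Hdac9 differ in base composition although both genes rose. The upstream 250 bases are given for the Hdac4 start (GRCm38.p6, chr1:92180342-92180591, minus strand) and for both Hdac9 starts in the RefSeq table (chr12:34917096-34917345 and chr12:34528890-34529139, minus strand), with the EGR core in capitals.
Hdac4 upstream: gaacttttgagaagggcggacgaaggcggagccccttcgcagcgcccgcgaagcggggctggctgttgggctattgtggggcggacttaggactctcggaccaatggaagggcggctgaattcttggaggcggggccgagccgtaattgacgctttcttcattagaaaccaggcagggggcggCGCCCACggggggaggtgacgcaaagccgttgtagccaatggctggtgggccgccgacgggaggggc
Hdac9 upstream, start 1: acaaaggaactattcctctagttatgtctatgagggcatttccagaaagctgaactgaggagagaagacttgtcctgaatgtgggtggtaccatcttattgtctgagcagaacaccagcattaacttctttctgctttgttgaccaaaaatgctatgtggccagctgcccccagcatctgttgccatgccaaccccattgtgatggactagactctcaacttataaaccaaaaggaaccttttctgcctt
Hdac9 upstream, start 2: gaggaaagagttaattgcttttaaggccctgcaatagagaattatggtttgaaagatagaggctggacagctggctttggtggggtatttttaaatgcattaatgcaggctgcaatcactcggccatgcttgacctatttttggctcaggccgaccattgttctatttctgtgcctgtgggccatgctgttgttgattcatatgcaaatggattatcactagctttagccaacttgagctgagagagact
The Hdac4 promoter is rich in G and C (68%) and in CpG (32), with 1 EGR core, here as its reverse complement, and 5 GC boxes (GGGCGG on either strand), none of which shares a base with the EGR core. The Hdac9 promoters hold 44% and 45.3% G and C and 0 and 3 CpG, with 0 EGR cores and 0 GC boxes. Hdac6, which was not called, is the only other matched member with the EGR core, with 2 cores and 5 GC boxes that share 10 bases. GC boxes are in 35.7% of all promoters. A MEF2 motif, in 3.19% of all promoters, was found among the members only in the Hdac5 promoter. These matches describe letters in a window and were not tested for binding.

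The class IIa members with the highest levels per length, Hdac5 and Hdac7, were not called. Hdac5, a signal-responsive MEF2 corepressor, stood at 94.1, 92.1 and 101 normalized counts in control and at 94.96, 72.6 and 89.97 in cKO replicates 1, 2 and 3. The groups overlapped, with the lowest value in cKO replicate 2, and the log2 fold change was -0.15 (SE 0.15, edgeR adjusted p = 0.491). Hdac7, known for its role in endothelial cells, stood at 127, 132 and 125 in control and at 129, 94.9 and 116 in cKO replicates 1, 2 and 3. Here too cKO replicate 2 was lowest and cKO replicate 1 within the control range, and the log2 fold change was -0.17 (SE 0.14, edgeR adjusted p = 0.38). Hdac5 lies on chromosome 11 from 102055746 to 102091480 and Hdac7 on chromosome 15 from 97623095 to 97674933, both on the minus strand, and 29 exonic bases of Hdac7 overlap Slc48a1 on the other strand.

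**Figure D3:**
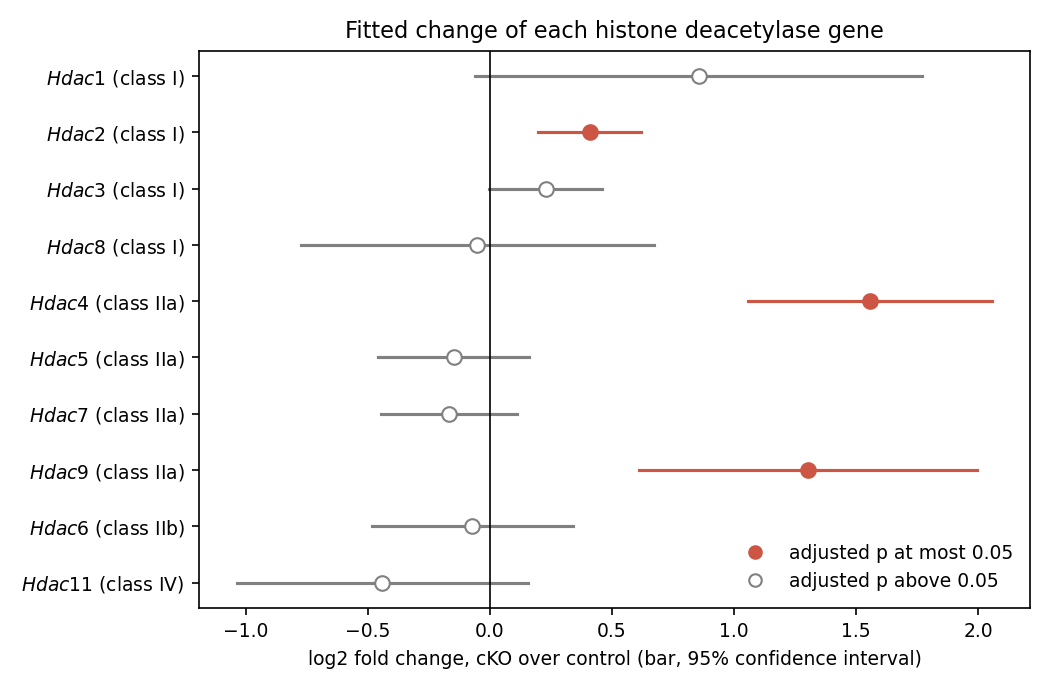
Log2 fold change, cKO over control, of each HDAC gene with its 95% confidence interval, with filled red points at an adjusted p of at most 0.05 and open points above it. Intervals of Hdac4 (1.06 to 2.06), Hdac9 (0.61 to 1.99) and Hdac2 (0.20 to 0.62) lie above 0.

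Within class IIa, each gene's share of the class's own reads needs no scaling between libraries. Hdac4 took 7.15% ± 0.803 of class IIa counts in control and 19.1% ± 0.871 in cKO nerves (SD, n = 3), and Hdac9 took 4.65% ± 0.663 and 10.7% ± 3.93. Hdac5 took 37.7% ± 1.52 and 30.3% ± 2.2, and Hdac7 took 50.5% ± 1.7 and 39.9% ± 2.59. Shares of the 4 genes add up to a whole, so that a larger share for some means a smaller share for others. The control library with the highest Hdac4 share had 7.79% (exact Clopper-Pearson 95% interval 5.06 to 11.4), and the cKO library with the lowest had 18.6% (14.9 to 22.8), where intervals cover counting error only.

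Summed over class IIa, the genotypes overlapped, with 250.02, 254 and 258 normalized counts in control and 316, 257 and 275 in cKO replicates 1, 2 and 3. Summed over class I, every cKO library was above every control library, with 508, 441 and 446 in control and 582, 638 and 541 in cKO replicates 1, 2 and 3. The sums were not tested. In class I, Hdac2 took 59.3% ± 0.263 and 62.2% ± 2.41 and Hdac3 took 36.0% ± 0.822 and 33.3% ± 1.84 in control and cKO nerves (SD, n = 3). For Hdac2 every cKO share (60.7% or more) was above every control share (at most 59.6%). For Hdac3 every cKO share (at most 34.6%) was below every control share (35.1% or more). Their Clopper-Pearson 95% intervals overlapped, however. For Hdac2 they were 54.7 to 64.4 in control replicate 2 and 57.1 to 64.3 in cKO replicate 1. For Hdac3 they were 31.0 to 39.3 in control replicate 3 and 31.1 to 38.2 in cKO replicate 1. Both genes together made up most of the class I counts, so that their shares are not independent. Differences between shares were not tested in either class.

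**Figure D4:**
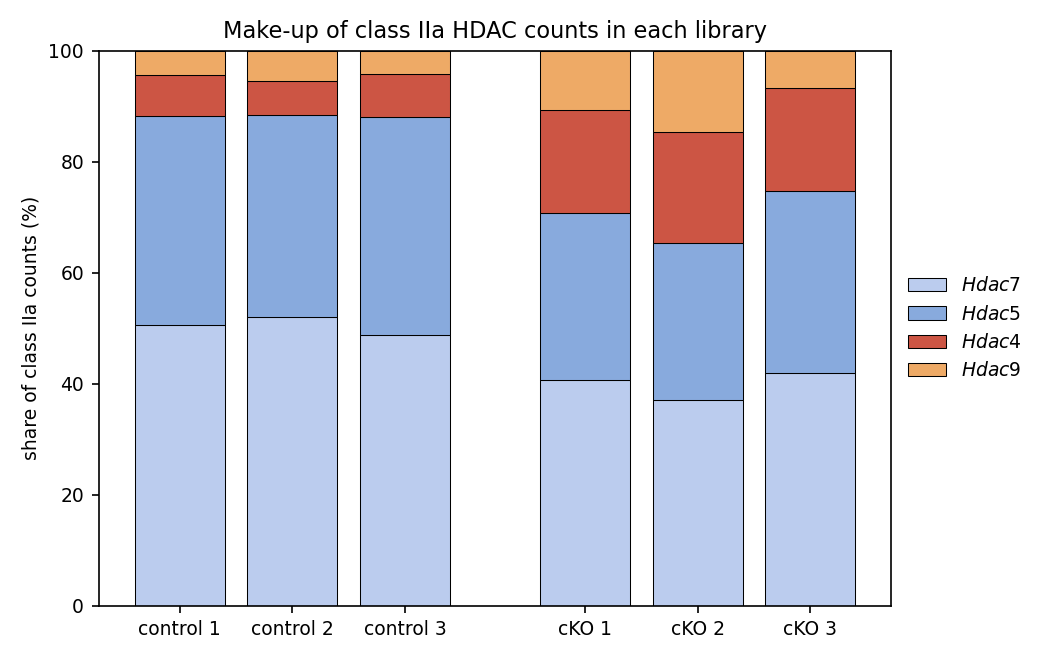
Share of class IIa HDAC counts (%) taken by Hdac7, Hdac5, Hdac4 and Hdac9 in each library. The Hdac4 share averages 7.15% in control and 19.1% in cKO libraries.

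Hdac6 of class IIb and Hdac11 of class IV were not called. Hdac6, the cytoplasmic deacetylase of alpha-tubulin and cortactin, stood at 57.1, 47.7 and 45.2 normalized counts in control and at 47.5, 37.5 and 53.5 in cKO replicates 1, 2 and 3. The groups overlapped, and the log2 fold change was -0.07 (SE 0.20, edgeR adjusted p = 0.819). Hdac11, the sole class IV enzyme, which removes long fatty acyl groups from lysines, stood at 18.5, 30.7 and 27.6 in control and at 20.1, 14.1 and 22.5 in cKO replicates 1, 2 and 3. Control replicate 1 lay among the cKO libraries, with 12 reads, and the log2 fold change was -0.44 (SE 0.29, 95% confidence interval -1.04 to 0.15, edgeR adjusted p = 0.264). Hdac6 lies on the X chromosome from 7507246 to 7525015 on the minus strand. Hdac11 lies on chromosome 6 from 91106659 to 91124686 on the plus strand, and 96 of its exonic bases overlap Gm14573 on the other strand.

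Levels of different genes were compared per kb of the longest coding transcript. In control nerves Hdac2 (84.8 normalized counts per kb) and Hdac3 (83.6) were highest and overlapped, followed by Hdac7 (30.3) and Hdac5 (19.8), which were separate from each other and from their neighbours. Hdac6 (12.1), Hdac11 (9.65), Hdac8 (7.88) and Hdac4 (4.61) followed, each overlapping with the next in this order. Hdac1 (3.06), with the reservation above, and Hdac9 (2.18) were lowest and overlapped. In cKO nerves Hdac4 (13.7 per kb) moved from rank 8 to rank 5, below Hdac5 (17.7) and above Hdac6 (11.1), and was separate from both. Hdac9 (5.54) stayed at rank 10. With the union of all exons as length the control order was the same, and Hdac2 was then separate from Hdac3. Hdac4 again moved from rank 8 to rank 5 but overlapped with both neighbours, and Hdac9 ranked 9 in cKO nerves.

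The genes whose profile over the 6 libraries was most like that of Hdac4 were Clspn, Ncam2 and Bzw2, with mean absolute differences of 0.05, 0.07 and 0.08 in centred log2 CPM. Clspn rested on 2, 2 and 4 reads in control and 15, 8 and 13 in cKO replicates 1, 2 and 3. Ncam2 had 5, 8 and 11 and then 35, 21 and 32 reads, and Bzw2 had 251, 331 and 453 and then 1320, 928 and 1228 reads.

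Calls in the complexes that hold class I HDACs, and in the lists after them, stand beside 15.4% higher and 16.2% lower among all genes tested. In NuRD, which couples HDAC1 and HDAC2 to a chromatin remodeller, 3 of 11 subunits were higher and 3 lower. The remodeller Chd4 rose with a log2 fold change of 0.83 (SE 0.09, edgeR adjusted p = 2.29e-09) and Mta3 fell by 0.81 (SE 0.16, edgeR adjusted p = 0.000123). Gatad2b rose by 0.76 (SE 0.24, edgeR adjusted p = 0.0112), a call lost without control replicate 2 (edgeR adjusted p = 0.0761) or 3 (0.0804) and in DESeq2. The other complexes had 1 higher subunit each and 0 lower by edgeR.

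These were Arid4b in SIN3 (1 of 13, log2 fold change 0.57), the histone demethylase Kdm1a in CoREST (1 of 7, 0.66), Ncor1 in NCoR/SMRT (1 of 5, 0.38) and Elmsan1 in MiDAC (1 of 3, 0.36). The Elmsan1 call was lost without control replicate 1 or 3 and without cKO replicate 1 or 3, with an edgeR adjusted p of up to 0.128, and in DESeq2. Median log2 fold changes were 0.02 for NuRD, 0.00 for SIN3, 0.29 for CoREST, 0.38 for NCoR/SMRT and 0.34 for MiDAC, beside 0.00 for all genes tested.

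Partners of the class IIa HDACs were counted against the same shares of all genes. MEF2 factors, which recruit these enzymes to DNA, gave 0 calls among 3 tested in edgeR, with a median log2 fold change of -0.15. Of 11 kinases that phosphorylate them, 1 was higher and 0 lower. This was Camk4, with 7, 7 and 3 reads in control and 23, 16 and 26 in cKO replicates 1, 2 and 3 and a log2 fold change of 1.60 (SE 0.44, edgeR adjusted p = 0.00285). Without control replicate 3 its edgeR adjusted p was 0.0615. Of 6 genes for 14-3-3 proteins, 3 were higher, Ywhaz (log2 fold change 0.45), Ywhae (0.36) and Ywhab (0.27), and the Ywhab call was lost whenever a library other than cKO replicate 3 was left out (edgeR adjusted p up to 0.079).

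**Figure D5:**
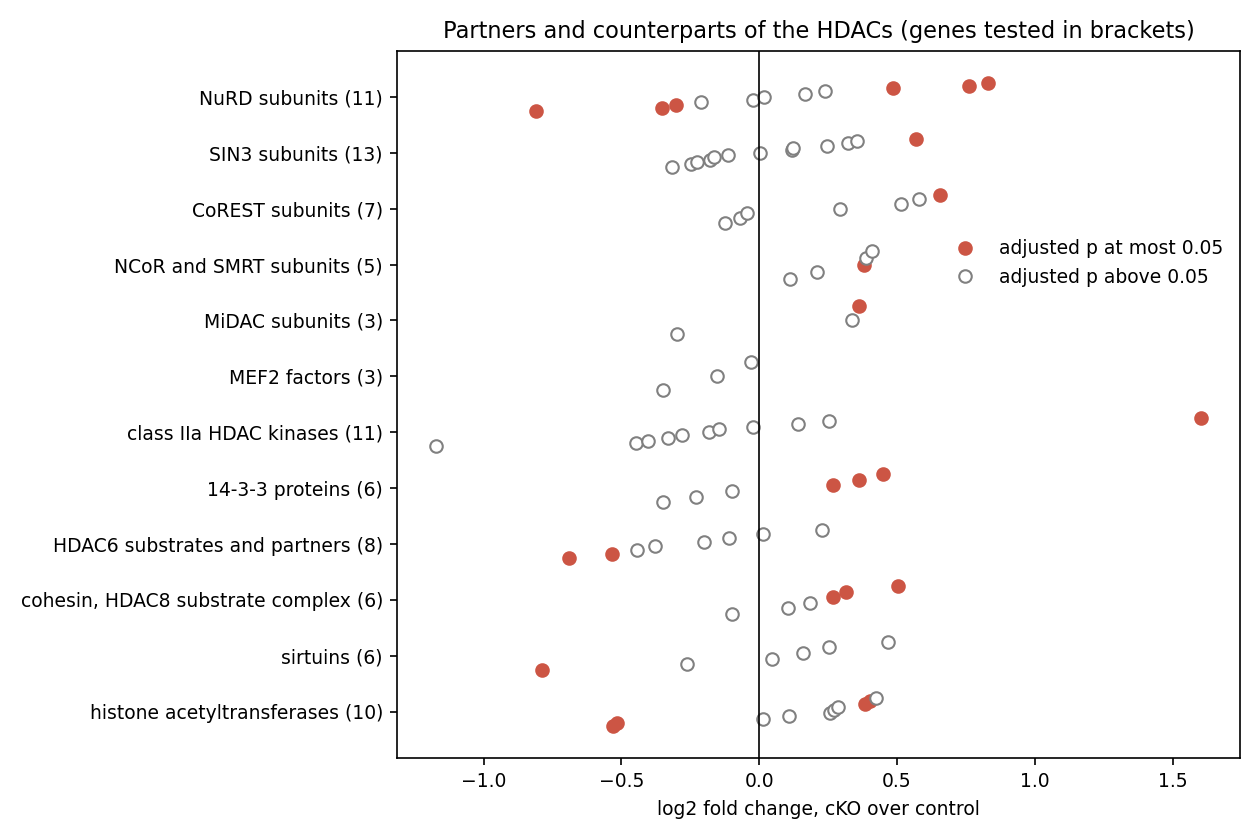
Log2 fold change, cKO over control, of genes in 12 lists tied to the HDACs, 1 point per gene tested, filled red at an adjusted p of at most 0.05 and open above it. Camk4 (1.60) stands highest and Sirt2 (-0.79) and Mta3 (-0.81) lie among the lowest called genes.

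Substrates and partners of Hdac6 and Hdac8 were counted by the same rule, where 15.4% of all genes were higher and 16.2% lower. Among 8 genes tied to HDAC6, 2 were lower, the mitochondrial transport GTPase Rhot1 (log2 fold change -0.69, SE 0.13, edgeR adjusted p = 0.000221) and Tuba1a (-0.53, SE 0.17, edgeR adjusted p = 0.0359). Of 6 cohesin genes, 3 were higher, the loader Nipbl (log2 fold change 0.50, SE 0.11, edgeR adjusted p = 0.000597), Smc3 (0.31) and Stag1 (0.27). The Tuba1a call was lost when any control library or cKO replicate 1 was left out (edgeR adjusted p up to 0.122), and under total-count scaling. Without cKO replicate 3 Tuba1a was still called, but with a smaller log2 fold change of -0.33 (edgeR adjusted p = 0.00925). The Smc3 call was lost without control replicate 1 or 2 and without cKO replicate 1 or 2 (edgeR adjusted p up to 0.271), and the Stag1 call whenever a library other than cKO replicate 3 was left out (edgeR adjusted p up to 0.16). DESeq2 called neither Smc3 nor Stag1.

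Sirtuins, the NAD-dependent deacetylases, and the enzymes that add or read acetyl groups were examined beside the zinc-dependent family. Sirt2, the sirtuin of myelin, stood at 1043, 1095 and 1254 normalized counts in control and at 691, 672 and 602 in cKO replicates 1, 2 and 3, with no overlap. It fell by 0.79 on the log2 scale (SE 0.09, edgeR adjusted p = 1.36e-08) and was the only one of 6 sirtuins tested that was called. Of 10 acetyltransferases, 2 were higher and 2 lower, and Brd2, which binds acetylated lysines, was higher (log2 fold change 0.28). Among acetyltransferases, Crebbp rose by 0.40 and Kat2b and Kat5 fell by 0.53 and 0.52. The Kat2b call was lost without control replicate 3 or cKO replicate 1 or 2 (edgeR adjusted p up to 0.0966) and the Kat5 call without control replicate 2 or 3 or cKO replicate 2 (edgeR adjusted p up to 0.0964), and neither was called in DESeq2 or under total-count scaling. The Brd2 call was lost without control replicate 1 or 3 (edgeR adjusted p up to 0.0563).

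Schwann cell genes whose products work with HDACs complete the account. Of 9 tested, 3 were higher and 3 lower, among them Pou3f1 (log2 fold change 2.05) and Sox2 (1.96), each called without exception when single libraries were left out. Sox10, Egr2 and Jun are named after their values were seen, because HDAC1, HDAC2 and HDAC4 are known to act with or on them. Sox10 fell by 0.79 (SE 0.09, edgeR adjusted p = 8.8e-09), Egr2 rose by 0.36 (SE 0.10, edgeR adjusted p = 0.00579) and Jun stood at 188 ± 18.4 and 203 ± 22.9 normalized counts in control and cKO nerves (SD, n = 3, log2 fold change 0.11, edgeR adjusted p = 0.522). Rnf20, the partner of Rnf40 in the ligase, rose by 0.44 (SE 0.13, edgeR adjusted p = 0.00998), a call lost without control replicate 3 (edgeR adjusted p = 0.087) or cKO replicate 1 (0.057).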

How the data were processed

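For each of the 6 libraries the authors mapped reads to mm9 with TopHat, counted uniquely placed reads on genes by HTSeq and deposited the counts without normalization. The gene annotation and strand setting are not given in the sources used here. The test was edgeR 4.0.16 in R 4.3.3. It used filterByExpr (11371 of 24015 genes, all 10 members), TMM scaling and the robust quasi-likelihood model of genotype alone, with Benjamini-Hochberg adjustment over all genes tested. Confidence intervals (95%) came from the fit. In these libraries 1 read stood for 0.414 to 0.823 CPM. Alternatives were RLE and total-count scaling, DESeq2 1.42.0 with and without a fold-change prior, other count filters, the replicate block and each library left out. Copies were searched with BLAST 2.17.0, and positions come from GENCODE on mm9. The script was tested on simulated data. The genes named were the members, Rnf40, Rnf20, up to 3 called genes with the largest change from each list tied to HDACs, the leading and near-absent markers, and the 3 genes most like Hdac4; some of them are not reported here. Members and lists were chosen with earlier results of these data known.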

Additional observations from a re-analysis of the deposited data

How the results depend on the processing

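Hdac2 and Hdac4 kept their direction and stayed called in 13 of 13 alternatives (log2 fold changes 0.32 to 0.68 and 1.38 to 1.82), and Hdac9 in 12 of 12 (1.06 to 1.58). With at least 10 counts in every library, Hdac1, Hdac8 and Hdac9 were not fitted, and 1 member passed the rule with the fold minimum. Total-count scaling called 5 members higher, adding Hdac1 (1.12, edgeR adjusted p = 0.0367 in a range of 0.0367 to 0.387) and Hdac3 (0.50, edgeR adjusted p = 0.000759 in a range of 0.000759 to 0.363). It called 3766 genes higher and 880 lower over all genes, 81.1% of calls being higher against 48.8% with TMM, and 1008 higher and 261 lower with the fold minimum. The cause was not tested, but this scaling moved the median of all genes to 0.27. Leaving out each library gave 3 members higher each time and 1 to 2 with the fold and base mean minimums. Numbers did not pair the libraries: deviations of same-numbered libraries correlated at -0.09, -0.02 and -0.06. With the replicate block, 3 members were higher, 1727 genes higher and 1837 lower, and the difference in the Hdac2 to Hdac1 log2 ratio was -0.48. That difference ranged from -0.71 to -0.21 when libraries were left out. Single genes were followed over the alternatives for the members, Rnf40, Rnf20 and up to 3 called genes from each list tied to HDACs. Other genes named here, such as Sox10, Egr2, Snap25 and those most like Hdac4, were not followed. Among the genes followed, the block lost only the Smc3 call (edgeR adjusted p = 0.0548 in a range of 0.000335 to 0.271). Over the alternatives, all 38 values of called members kept the call, and of values of the other members 87 stayed without one and 2 gained one. Of the other genes followed 298 values kept the call and 52 lost it. Counts of few reads limit Hdac1, Hdac8, Hdac9, Hdac11 and, in control, Hdac4.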
